A study of Mus musculus with 9 samples.

Results

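The nuclear genes for the subunits of the mitochondrial respiratory chain and of ATP synthase were followed in the mouse retina. They were chosen by symbol from a table of gene expression: protein-coding genes named Sdha to Sdhd, genes whose symbol begins with Ndufa, Ndufb, Ndufc, Ndufs, Ndufv, Uqcr or Atp5, and genes named Cox4 to Cox8 with a letter, without the Ndufaf assembly factors. Of 97 symbols that matched, 84 belonged to protein-coding genes and 13 to pseudogenes or noncoding genes, which were left out. A mean of at least 1 FPKM (fragments scaled to transcript length and library depth) over the 9 libraries kept 83 of the 84, of 35397 genes in the table and 14588 at that level. They comprise 38 genes of complex I, 4 of complex II, 8 of complex III, 16 of complex IV and 17 of complex V. Just inside the limit was Ndufa4l2 (1.12 FPKM), and the gene outside it was Cox7b2 (0.0497 FPKM). A symbol rule does not follow biochemistry everywhere: Ndufa4 is known as a complex IV subunit, Ndufab1 also serves as the mitochondrial acyl carrier protein, Cox7a2l joins complexes into supercomplexes, and Atp5s is a coupling factor of ATP synthase.

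The libraries were made from retinas of wild-type mice (5 libraries) and of db/db mice (4 libraries, numbered 1, 3, 4 and 5), in a study of branched-chain amino acids in diabetic retinopathy. The db mutation removes the signalling form of the leptin receptor in the whole animal, and db/db mice become obese and diabetic. No treatment or other allele is named for either group, and the sources used here give no age, sex or strain background. The labels number the samples without saying that each came from a separate mouse, so the p-values measure the spread between these samples.

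As background, complexes I and II pass electrons from NADH and succinate to ubiquinone, complex III hands them to cytochrome c, and complex IV reduces oxygen. Complexes I, III and IV pump protons, and complex V, the ATP synthase, uses the proton gradient to make ATP. Photoreceptors, which make up most retinal cells in the mouse, pack mitochondria into their inner segments. All complexes but complex II also contain subunits made from the mitochondrial genome, so nuclear and mitochondrial transcripts must both be supplied.

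The library db/db 1 stood apart from the rest. In db/db 1, 46.2% of the 14588 genes lay above and 36% below all 5 wild-type libraries. All 13 listed skeletal muscle genes were higher there than in every wild-type library, with summed levels of 266.2 FPKM, against 5.13 to 6.73 FPKM in wild type, 7.36 in db/db 3, 26.4 in db/db 4 and 7.72 in db/db 5. The defining fast myosin genes Myh1, Myh2 and Myh4 were at or near 0 in wild type. Summed pigment epithelium genes reached 435.2 FPKM in db/db 1, against 126.6 to 201.6 in wild type and 92.1 to 212.4 in the other db/db libraries. Of 8 tested genes of that list 7 were above wild type in db/db 1; Ttr alone made up 275 FPKM of the sum, and Lrat, at 2.52 FPKM against 2.70 to 3.67, was below. Summed red blood cell genes reached 72.61 FPKM there, against 14.63 to 26.11 in wild type and 21.71 to 23.85 in the others. Summed lens genes varied in both groups, from 1.68 to 114.8 FPKM in wild type and from 2.19 to 235.2 in db/db. Rod genes, the defining markers of the retina, summed to 13980 to 14930 FPKM in wild type and 14380 to 16370 in db/db, so all 9 libraries carry the labelled tissue. Recovered depth was 36.6 to 47.9 M reads. Because db/db 1 is 1 of only 4 db/db libraries, each comparison is given with and without it.

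In wild-type retina the subunit genes had a median level of 31.4 FPKM. The highest were Atp5b, the catalytic beta subunit of ATP synthase (241.2 ± 5.87 FPKM, SD, n = 5), Cox8a, a small complex IV subunit (224.0 ± 14.9), and Atp5a1, the alpha subunit of ATP synthase (209.2 ± 6.0). Cox6a1 (150.1 ± 7.49) and Cox6b1 (105.1 ± 5.45), both of complex IV, came next. Cox8a overlapped both of its neighbours in that order, with 209.4 to 240.2 FPKM against 237.3 to 250.9 for Atp5b and 203.1 to 218.3 for Atp5a1. Cox6a1 stood clear of Atp5a1, at 140.8 to 161.1 FPKM. Complex medians were 23.2 FPKM for complex I, 35.4 for complex II, 42.1 for complex III, 42.4 for complex IV and 33.1 for complex V. The lowest were Cox6a2, the muscle form of a complex IV subunit (0.0902 FPKM), and Ndufa4l2, a hypoxia-induced relative of Ndufa4 (0.83). Both reached the limit of 1 FPKM only through db/db 1. Levels depend on the exon length used, and a gene with long annotated exons, such as Atp5l with 6443 bases, is understated on this scale.

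With all 9 libraries, no subunit gene passed the test between db/db and wild type, although most values leaned upward. By limma on log2(FPKM + 1) with Benjamini-Hochberg adjustment over 14588 genes, 0 of 83 were called higher and 0 lower, where 0.233% of all tested genes were called higher and 0.267% lower. The count was also 0 in both directions by limma-voom on recovered reads. At an unadjusted p under 0.05 there were 5, all higher, where 9.36% of all tested genes passed higher and 9.91% lower. Among these 5 was Ndufa4l2. Like Cox6a2 it reached the limit of 1 FPKM only through db/db 1, so the upward direction of both is partly built into the selection. Over the 83 genes, these included, the log2 change was positive for 74 and negative for 9. The median was 0.18, beside a median of 0.0035 over all tested genes. Complex medians were 0.20 for complex I, 0.20 for complex II, 0.23 for complex III, 0.18 for complex IV and 0.15 for complex V. Without db/db 1 the median was -0.03 over the 83 genes, 34 values were positive and 49 negative, and the complex medians were -0.01, 0.03, -0.00, -0.03 and -0.15 in the same order. In bulk tissue, fewer cells of a type and less RNA per cell cannot be told apart.

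The upward lean was carried by db/db 1. In db/db 1 the median subunit gene was 1.81-fold its wild-type mean (a deviation of 0.86 on the log2(FPKM + 1) scale, beside 0.07 over all tested genes). Of the 83 genes 81 lay above all 5 wild-type libraries, where 46.2% of all tested genes lay above and 36% below. Only Ndufb2, an accessory subunit of complex I, lay below them there, and 1 gene lay within. Summed over the 83 genes, db/db 1 held 6367 FPKM, against 3362 to 3646 in wild type. The other db/db libraries did not share this level: the sums were 3687 FPKM in db/db 3, 3158 in db/db 4 and 3801 in db/db 5. In db/db 4 the median deviation was -0.22, with 5 genes above and 61 below the wild-type range, where 22.4% and 35% of all tested genes lay above and below it. In db/db 3 it was 0.04 (29 above, 12 below) and in db/db 5 it was 0.07 (36 above, 16 below). The background shares were 25.9% above and 23% below in db/db 3, and 29.1% above and 34.5% below in db/db 5.

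**Figure D1:**
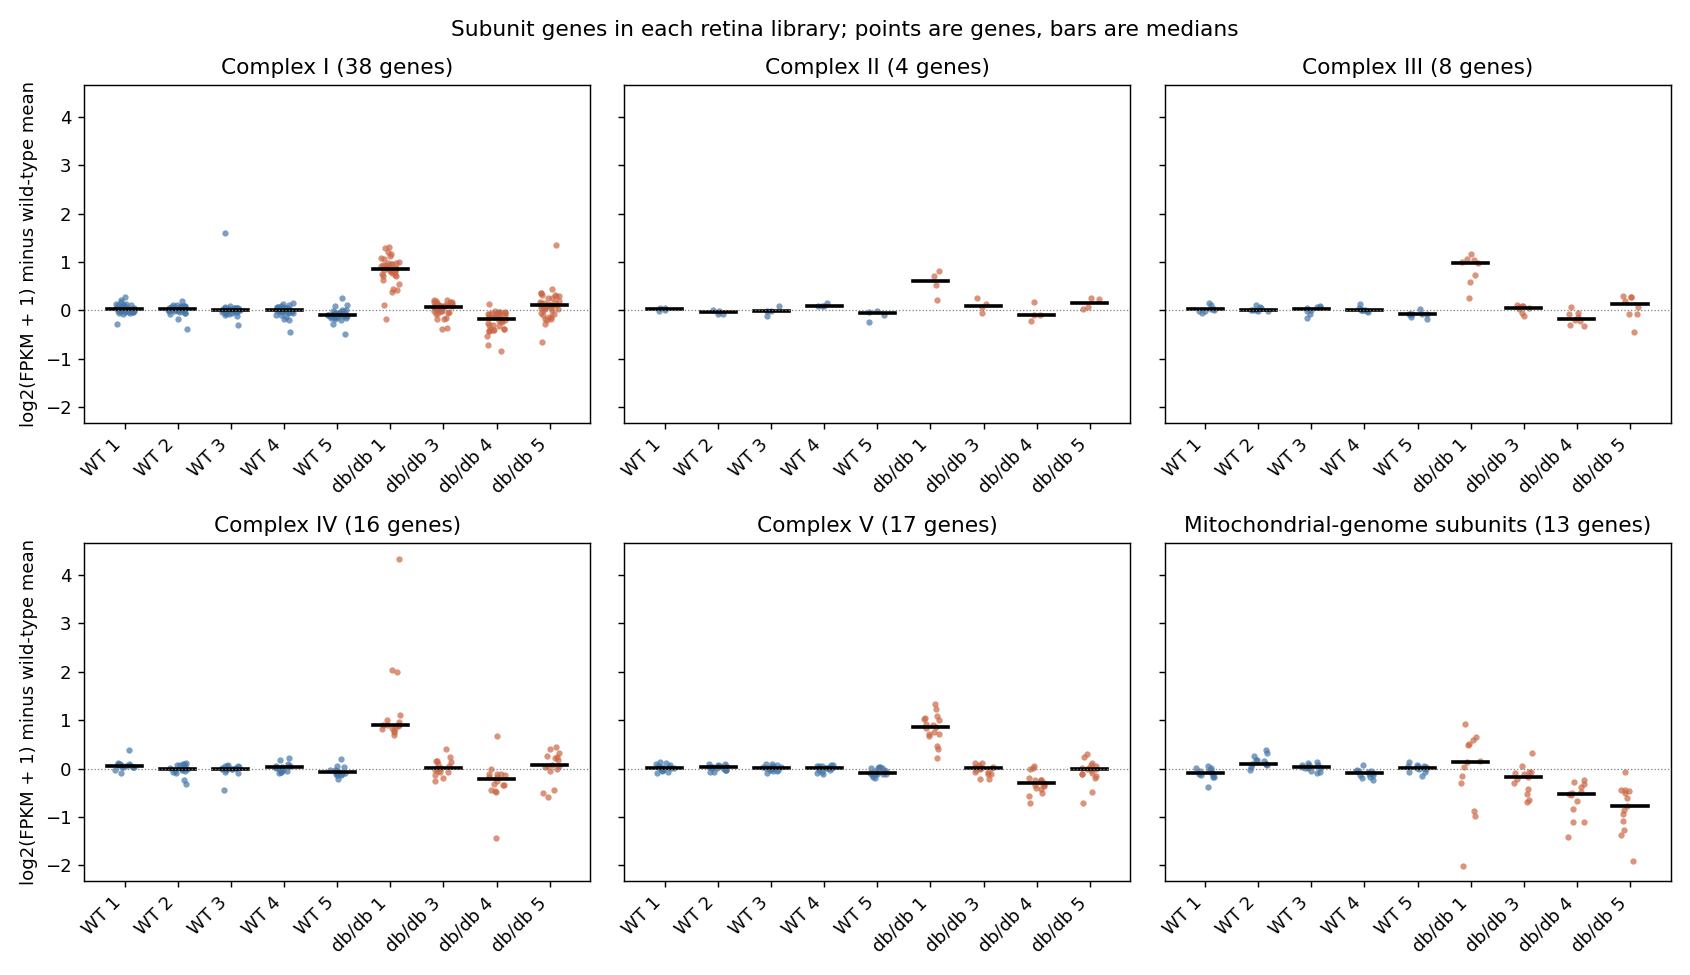
Each point is 1 gene in 1 library, blue for wild type and orange for db/db, and the vertical axis gives log2(FPKM + 1) minus its wild-type mean, with a bar at the median. Panels hold complexes I to V and the 13 genes of the mitochondrial genome; in db/db 1 the medians of complexes I to V lie at 0.85, 0.61, 0.98, 0.90 and 0.86.

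The rise in db/db 1 ran through all 5 complexes but not evenly. Complex III had the highest median deviation (0.98, 8 of 8 genes above wild type), followed by complex IV (0.90, 16 of 16), complex V (0.86, 17 of 17), complex I (0.85, 36 of 38) and complex II (0.61, 4 of 4). Of all tested genes 46.2% lay above wild type there. The largest deviations were those of Cox6a2 (4.34), Cox8b (2.04) and Cox7a1 (2.01), the heart and skeletal muscle forms of 3 complex IV subunits. Next came Atp5e (1.34), the epsilon subunit of ATP synthase, and 2 accessory subunits of complex I, Ndufa2 (1.31) and Ndufa5 (1.28). At the other end, Ndufs1, the largest core subunit of complex I, deviated by 0.11 and Sdha by 0.21. Leaving out the 3 muscle forms, the median of the other 80 was 0.85.

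Short transcripts stood higher in db/db 1 than long ones. Across the 83 genes Spearman's rho of the deviation against transcript length was -0.602, and over all tested genes it was -0.539. Both are descriptions within 1 library, over genes that are not independent. Subunit genes with transcripts under 1 kb had a median deviation of 0.98, those of 1 to 2 kb 0.778 and those of 2 kb or more 0.707. All tested genes of the same classes had 0.456, 0.465 and -0.0415. In each class the median of the subunit genes was the higher. With a correction for transcript length in 20 bins, the median change over the 83 genes with all libraries was 0.09. The parts of transcript length, muscle genes and pigment epithelium genes in the level of db/db 1 were not tested.

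Complex IV carries tissue-specific isoforms, which show whether a library holds the retina's usual forms. Cox6a2, the form known from heart and skeletal muscle, was at 0.123, 0.0342, 0.0322, 0.132 and 0.129 FPKM in wild type 1 to 5 and at 21.1, 0.0331, 0.750 and 0.241 FPKM in db/db 1, 3, 4 and 5. It was high in db/db 1, intermediate in db/db 4 and close to 0 elsewhere, which is the order of the summed skeletal muscle genes in those 2 libraries. Cox7a1 was at 2.23, 1.43, 2.13, 2.52 and 1.93 FPKM in wild type and at 11.1, 2.98, 1.41 and 3.11 in db/db. Cox8b was at 4.24, 2.78, 1.95, 2.81 and 3.60 FPKM in wild type and at 15.5, 2.93, 0.472 and 1.82 in db/db. Both were far higher in db/db 1 than in any other library, and db/db 4 was the lowest library for both. Cox7a1 also lay above all wild-type libraries in db/db 3 and db/db 5, by a smaller margin. Relative to its common form Cox6a1, Cox6a2 was 0.0601% in wild type and 7.51% in db/db 1. Even in db/db 1 the common forms led: Cox7a1 was 15.4% of Cox7a2 and Cox8b 4.05% of Cox8a there, against 5.57% and 1.37% in wild type.

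**Figure D2:**
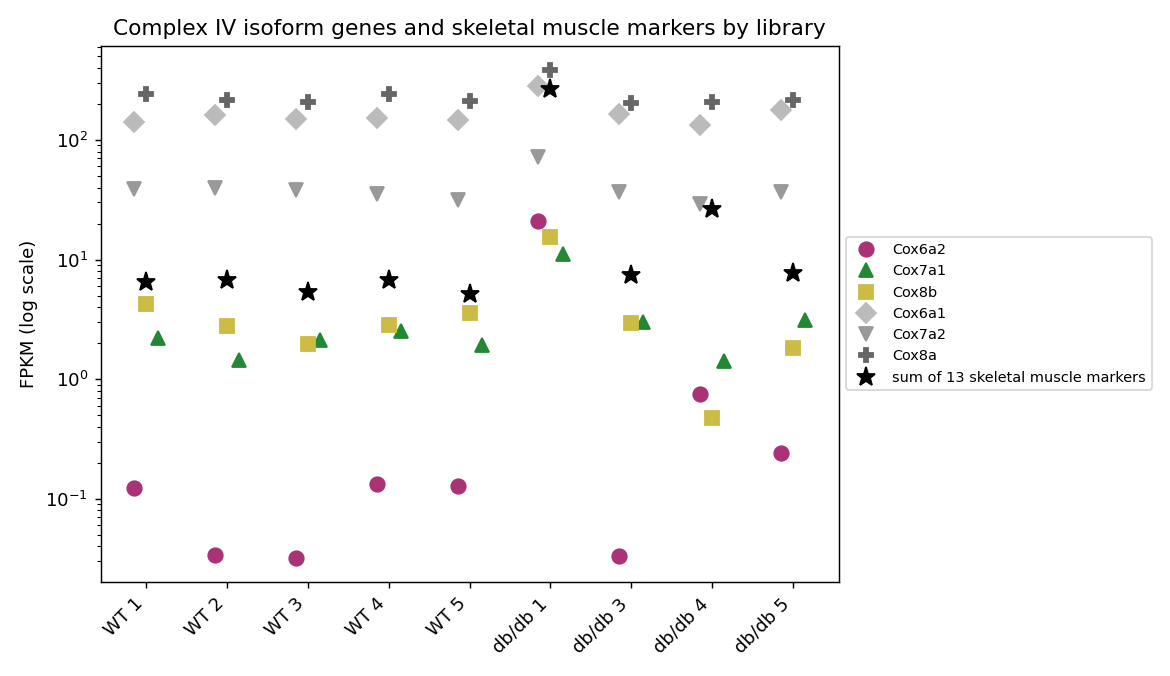
FPKM on a log axis in each of the 9 libraries of the muscle forms Cox6a2, Cox7a1 and Cox8b (coloured), of the common forms Cox6a1, Cox7a2 and Cox8a (grey) and of the summed 13 skeletal muscle genes (stars). All are highest in db/db 1, and in db/db 4 the muscle sum and Cox6a2 are second highest, at 26.4 and 0.750 FPKM.

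Isoform ratios were compared between groups for 9 pairs, as the difference of mean log2 ratios, by exact permutation of the group labels (two-sided, smallest possible p 0.00794). None passed after adjustment over the 9 pairs. Cox4i2, an alternative form of Cox4i1 known for its part in oxygen sensing, had the smallest p. Its log2 ratio to Cox4i1 was -3.37, -3.18, -3.24, -3.40 and -3.24 in wild type and -3.44, -3.54, -3.52 and -3.44 in db/db, so the groups did not overlap. The difference was -0.20 (exact permutation p = 0.0159, adjusted 0.143). It was present in db/db 1 as in the others. The ratio of Cox6b2, the testis form, to Cox6b1 was higher in db/db by 0.25 (exact permutation p = 0.0635, adjusted 0.238). The 3 genes for the c subunit of the ATP synthase ring, Atp5g1 to Atp5g3, make the same mature protein. Their 3 ratios differed between groups by -0.10 to 0.02, with adjusted exact permutation p of 0.262 to 0.786. Both Atp5g1 and Atp5g2 have near-identical pseudogenes, which are described with the copy of Ndufs5.

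Sdha, the flavoprotein subunit that oxidises succinate in complex II, was the subunit gene with the smallest p. It lies on the minus strand of chr13:74322254-74350280 (mm10). Its level was 100.4, 95.8, 100.2, 106.5 and 100.4 FPKM in wild type and 116.7, 120.5, 113.6 and 120.1 in db/db. The groups did not overlap, and db/db 1 was no higher than the others. Means were 100.7 ± 3.81 FPKM (SD, n = 5) and 117.7 ± 3.24 (SD, n = 4), and the log2 change was 0.22 (SE 0.06, 95% interval 0.10 to 0.35). With all 9 libraries the limma adjusted p was 0.0849. Without db/db 1 the change was 0.23 and the adjusted p 0.0212, with 1 of 83 subunit genes called higher where 4.72% of all tested genes were. The remaining subunits of complex II did not follow Sdha: without db/db 1, Sdhb, the iron-sulfur subunit, was at 26.3 to 29.8 FPKM in db/db and 23.8 to 30.3 in wild type, and Sdhc and Sdhd, the membrane anchors, overlapped likewise.

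As background, nuclear respiratory factor 1 (NRF1) is a known regulator of respiratory subunit genes. The promoter of Sdha is shown because Sdha had the smallest p, and whether NRF1 has a part in its level was not tested. In the RefSeq window (GRCm38.p6) from 250 bases before to 50 after the start of Sdha, the NRF1 letters (GCGCA, any base, GCGC, on either strand) occurred 3 times, all before the RefSeq start. That start lies inside the GENCODE span of the gene given with its levels, and the first match shown lies inside that span as well. The matches are shown in capitals with 10 bases on each side, on the minus strand of the gene.
Sdha, chr13:74350231-74350260: gcgactcggtGCGCAAGCGCagtctgtcgc
Sdha, chr13:74350276-74350305: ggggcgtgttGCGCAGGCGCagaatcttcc
Sdha, chr13:74350319-74350348: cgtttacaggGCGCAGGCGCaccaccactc

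The NRF1 letters were in 18 of 71 windows of subunit genes, those of Ndufb4 and Cox6a1 among them, so the genes shown are examples. Uqcrc1, a core subunit of complex III on the plus strand of its chromosome, held 2 matches, both just after the start. Whether NRF1 has a part in the level of Uqcrc1 was not tested either.
Uqcrc1, chr9:108936643-108936672: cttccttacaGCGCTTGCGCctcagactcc
Uqcrc1, chr9:108936668-108936697: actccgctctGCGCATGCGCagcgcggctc

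Across the 71 windows of 66 subunit genes with an entry (17 genes had none), 25.4% held the NRF1 letters, against 4.6% of 32851 windows of all genes. The ETS letters CCGGAAG, which GABP proteins bind, were in 22.5% and 8.86%, and the YY1 letters AAGATGGCG in 9.86% and 1.4%, on either strand. By complex, the NRF1 letters were in 8 of 35 windows of complex I, 2 of 3 of complex II, 1 of 5 of complex III, 1 of 12 of complex IV and 6 of 16 of complex V. The GC box GGGCGG (38.0% against 35.7%), CCAAT (40.8% against 37.4%) and TATAAA (9.86% against 13.6%) differed less. Windows of subunit genes had a median GC content of 57.3%, against 52.7% for all windows. A match describes the letters only, and binding was not measured.

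Besides Sdha, 2 subunit genes had db/db libraries that were all above wild type. Groups of all 9 libraries did not overlap for 3 subunit genes, all higher, where 5.2% of all tested genes were higher in this way and 6.38% lower. Uqcrc1 was at 43.6, 43.3, 43.1, 44.8 and 40.9 FPKM in wild type and at 65.6, 46.9, 45.3 and 52.6 in db/db. On the log2 scale it differed by 0.27 (SE 0.10, limma adjusted p = 0.205), and by 0.16 without db/db 1 (adjusted p = 0.0933). Atp5a1 was at 209.7, 204.5, 210.4, 218.3 and 203.1 FPKM in wild type and at 278.8, 227.2, 218.7 and 245.7 in db/db. Its change was 0.21 (adjusted p = 0.205) and 0.14 without db/db 1 (adjusted p = 0.108). For both, db/db 1 was the highest library and db/db 4 lay just above the highest wild-type library. The other 2 genes with an unadjusted p under 0.05 belong to complex I by symbol. Ndufb10, a membrane-arm subunit, was at 79.5 to 92.4 FPKM in wild type and at 147.9, 90.5, 93.4 and 110.2 in db/db (log2 change 0.34, adjusted p = 0.220). Ndufa4l2 was at 0.616 to 0.942 FPKM in wild type and at 2.52, 1.11, 0.821 and 1.497 in db/db (log2 change 0.40, adjusted p = 0.238). It reached the limit of 1 FPKM only through db/db 1, so its higher direction is partly built into the selection. It overlaps Shmt2 on the opposite strand, at 21.2 FPKM, and whether the counting used strand is not stated.

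**Figure D3:**
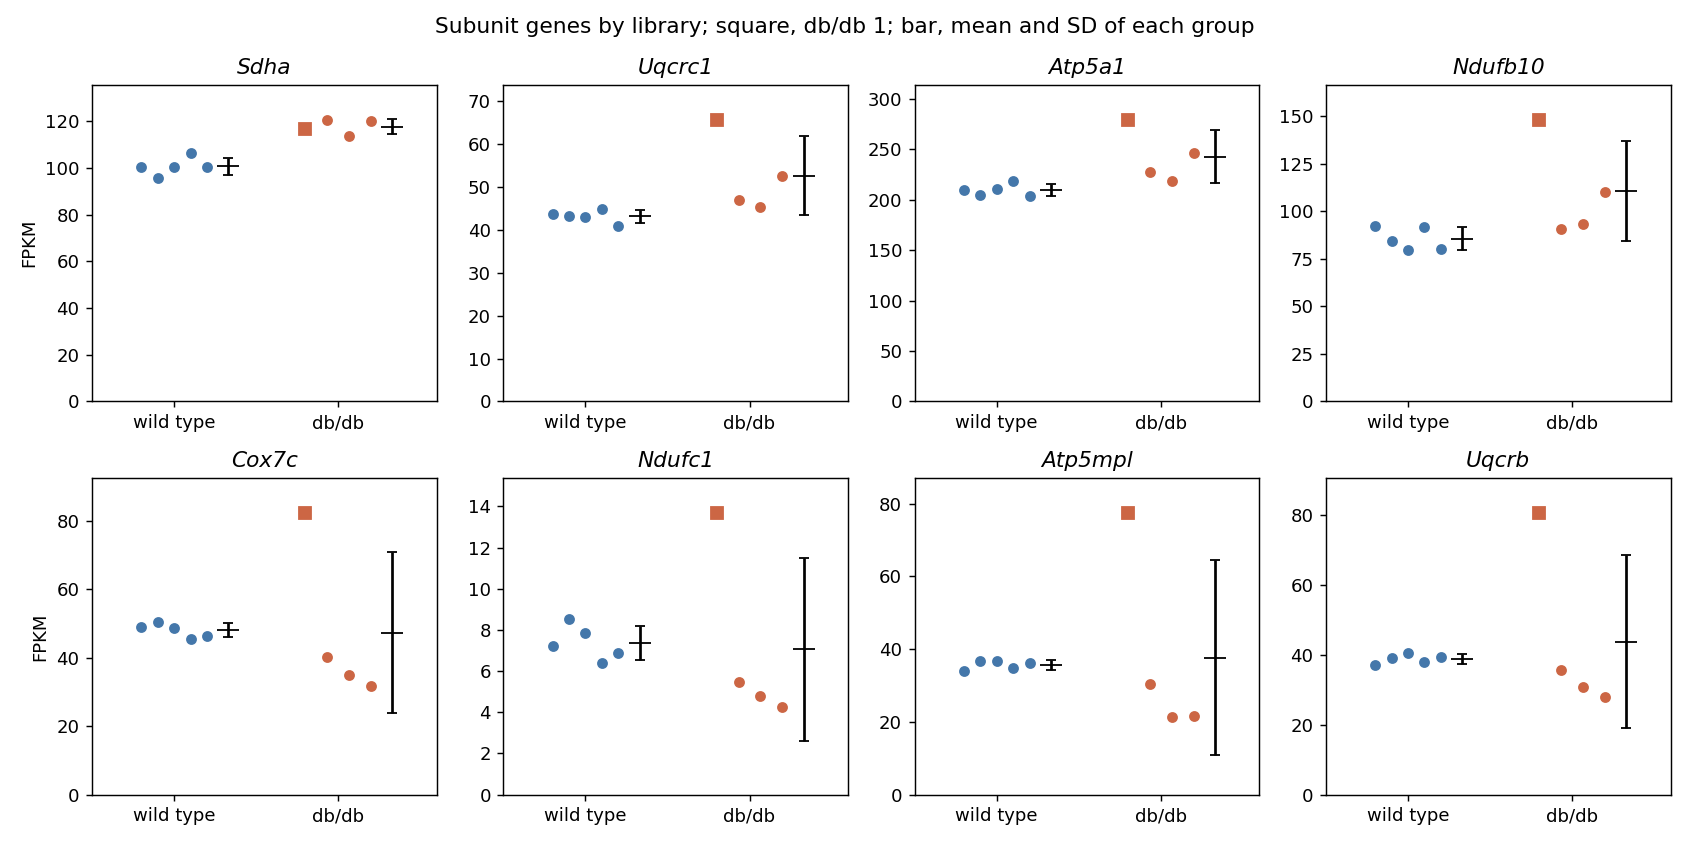
FPKM of 8 subunit genes, 1 panel each, in the 5 wild-type libraries (blue) and the 4 db/db libraries (orange, square for db/db 1), with the mean and SD of each group. In Sdha the db/db libraries (113.6 to 120.5 FPKM) lie above all wild-type libraries, while in Cox7c 3 of them lie below and db/db 1 far above.

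Without db/db 1, 6 subunit genes were lower in db/db, where 5.84% of all tested genes were. Across the 83 genes 8 had all 3 remaining db/db libraries below wild type (11.5% of all tested genes) and 3 had them all above (9.63%). The 6 came from complexes I, III, IV and V, and their number is near the background. Each was highest of all 9 libraries in db/db 1, so the direction of the call turns on leaving that library out.

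Cox7c, a small subunit at the edge of complex IV (chr13:86044816-86046904, minus strand, mm10), had the smallest p of these. It was at 49.0, 50.4, 48.8, 45.4 and 46.2 FPKM in wild type and at 82.2, 40.2, 34.9 and 31.8 in db/db. The last 3 all lay below the lowest wild-type library. The log2 change without db/db 1 was -0.42 (SE 0.07, limma adjusted p = 0.0144), and with all libraries it was -0.13 (SE 0.23, adjusted p = 0.785). A pseudogene, Gm12338, held 21.0% of the pair's reads. With the reads of all near-identical copies of Cox7c added, the change without db/db 1 was -0.44 (limma adjusted p = 0.0137).

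Ndufc1, an accessory subunit of the complex I membrane arm, was at 7.21, 8.52, 7.86, 6.41 and 6.87 FPKM in wild type and at 13.7, 5.47, 4.81 and 4.28 in db/db. Its change without db/db 1 was -0.52 (SE 0.09, adjusted p = 0.0163 by limma). Atp5mpl, a small membrane proteolipid of ATP synthase, was at 33.9, 36.7, 36.7, 34.8 and 36.3 FPKM in wild type and at 77.4, 30.5, 21.3 and 21.6 in db/db. Its change without db/db 1 was -0.55 (SE 0.10, adjusted p = 0.0193 by limma). In both genes the 3 db/db libraries lay below all wild-type libraries. Ndufc2, the partner of Ndufc1 in the same arm, was at 44.0 to 54.2 FPKM in wild type and at 106.2, 43.5, 29.6 and 40.5 in db/db, and did not pass (-0.40 without db/db 1, limma adjusted p = 0.0615).

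The other 3 calls were smaller. Uqcrb, a small subunit of complex III, was at 37.1, 39.0, 40.5, 37.9 and 39.4 FPKM in wild type and at 80.5, 35.8, 30.7 and 28.0 in db/db (-0.30 without db/db 1, limma adjusted p = 0.0324). Cox6c, of complex IV, was at 23.5, 25.04, 25.1, 22.3 and 23.5 FPKM in wild type and at 43.2, 22.7, 17.0 and 17.3 in db/db (-0.33, limma adjusted p = 0.0470). Its db/db 3 value lay within the wild-type range, so its groups overlapped. Atp5l, the g subunit of ATP synthase, was at 3.51, 3.88, 3.95, 3.85 and 3.84 FPKM in wild type and at 7.11, 3.17, 3.22 and 3.20 in db/db (-0.20, limma adjusted p = 0.0408). Its pseudogene Gm10221 held 58.1% of the reads of that pair. The call was lost when reads of all its near-identical copies, Gm10221 among them, were added (-0.09, limma adjusted p = 0.368).

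Base composition moved with these differences. Transcript GC content was 38.4% for Cox7c, 39.8% for Atp5l, 40.4% for Uqcrb, 44.1% for Ndufc1, 46.8% for Cox6c and 53.9% for Atp5mpl. Over the 83 genes, rho of the change without db/db 1 against GC content was 0.391, a description over genes that are not independent. In db/db 5 rho of the deviation against GC content was 0.455 over the 83 genes and 0.582 over all tested genes. With GC content corrected in 20 bins and db/db 1 left out, 1 subunit gene was called higher (2.56% of all tested genes) and 4 lower (2.34%). Sdha kept its call (0.25, limma adjusted p = 0.0213), as did Cox7c (-0.23, adjusted p = 0.0281), Ndufc1 (-0.44, adjusted p = 0.0299) and Atp5mpl (-0.60, adjusted p = 0.0281). Uqcrb (adjusted p = 0.0733), Cox6c (0.0844) and Atp5l (0.634) lost theirs in that limma fit, and Cox8a gained one (-0.21, adjusted p = 0.0386). A correction for transcript length without db/db 1, added after the data were seen, called 2 higher (7.21%), Sdha and Uqcrc1 (0.16, limma adjusted p = 0.0398), and 6 lower (6.44%). With neither db/db 1 nor db/db 4, a fit also added later, limma left Sdha higher (1.98%; 0.26, adjusted p = 0.0413) and Cox7c and Ndufc1 lower (1.74%). With array weights, which gave db/db 1 a weight of 0.0648 against 0.811 to 2.52 for the others, Sdha was called higher (3.77%) and Cox7c, Ndufc1 and Atp5mpl lower (4.5%).

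**Figure D4:**
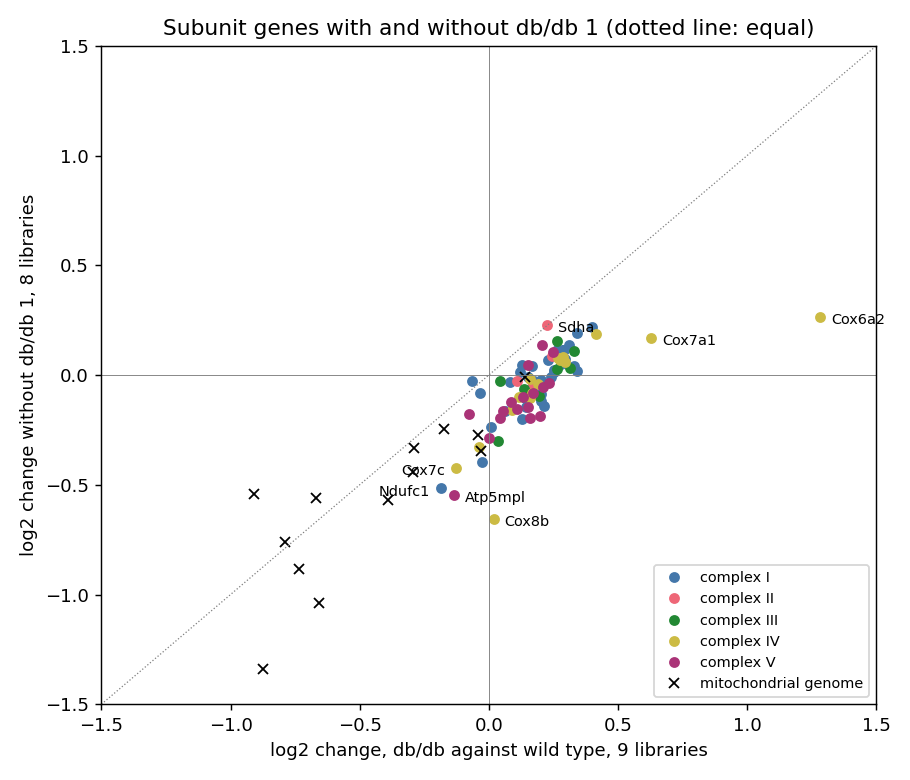
Log2 change between db/db and wild type of each subunit gene with all 9 libraries (horizontal axis) against that without db/db 1 (vertical axis), coloured by complex, with the 13 genes of the mitochondrial genome as crosses and a dotted line where both are equal. Of the 83 nuclear genes 74 lie right of 0, but on the vertical axis 34 lie above 0 and 49 below; Sdha lies at 0.22 and 0.23.

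The core catalytic subunits of complex I, which hold its flavin, iron-sulfur clusters and ubiquinone site, did not pass the test in either fit. Their 7 log2 changes with all libraries ran from -0.03 to 0.31, and without db/db 1 from -0.08 to 0.14, with 5 positive. Ndufv1, which carries the NADH site, was at 57.1, 57.6, 58.7, 60.4 and 53.9 FPKM in wild type and at 103.9, 65.0, 55.1 and 70.6 in db/db (0.31, limma adjusted p = 0.297). There db/db 3 and db/db 5 were above wild type and db/db 4 was not. Ndufs1 was at 11.2 to 11.5 FPKM in wild type and at 12.3, 11.1, 10.5 and 10.2 in db/db, so db/db 3, 4 and 5 lay below all wild-type libraries by a small margin (-0.08 without db/db 1). Of the F1 head of ATP synthase, Atp5b was at 237.3 to 250.9 FPKM in wild type and at 334.6, 254.2, 242.4 and 250.9 in db/db, and Atp5c1, the gamma stalk, at 63.9 to 66.8 and at 108.6, 66.4, 55.2 and 59.0. Neither passed.

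Ndufs5, an accessory subunit of complex I (chr4:123712710-123718202, minus strand, mm10), was high in 1 library of each group. It was at 8.89, 8.16, 35.1, 7.85 and 7.55 FPKM in wild type and at 16.4, 8.15, 5.73 and 29.6 in db/db. Wild type 3 and db/db 5, one from each group, were the high libraries. A processed pseudogene, BC002163 (chr16:42955631-42955949), is nearly identical to the Ndufs5 transcript. It was at 97.9, 100, 5.70, 102 and 88.5 FPKM in wild type and at 201, 101, 81.8 and 5.57 in db/db, low where Ndufs5 was high. The copy took 80.3% to 84.1% of the pair's reads in 7 libraries, but 5.68% in wild type 3 and 6.51% in db/db 5. Summed over the pair, recovered reads scaled to depth (RPM) were 38.9, 38.9, 32.1, 39.2 and 34.7 in wild type and 78.1, 39.2, 31.0 and 27.3 in db/db. The sum in wild type 3 was thus the lowest in wild type, and that in db/db 5 was the lowest of all libraries. The sum's log2 change was 0.13 with all libraries and -0.18 without db/db 1, and neither is read as a difference between the groups.

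The sequences show how little separates the pair. Over 319 compared bases they differ at 2, T81C and A105G, given as the Ndufs5 base, the position counted from 1 at the 5′ end of the copy, and the base of the copy. The stretches are from GENCODE M21 transcripts, with the differing base in capitals.
Ndufs5, positions 67 to 95: gcagaacagccctaTaagaacgccgctcg
BC002163, positions 67 to 95: gcagaacagccctaCaagaacgccgctcg
Ndufs5, positions 91 to 119: gctcggtgccacgcAtttgaaaaagagtg
BC002163, positions 91 to 119: gctcggtgccacgcGtttgaaaaagagtg

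Reads were not used here, so which base each library carries at these positions was not tested.

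**Figure D5:**
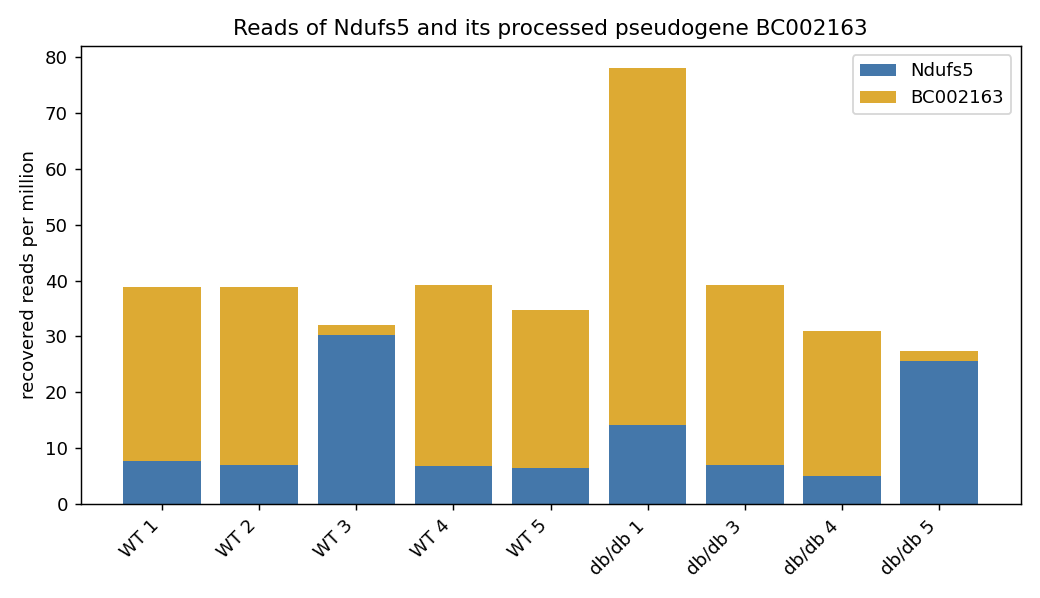
Recovered reads, scaled to depth (RPM), counted at Ndufs5 (blue) and at its pseudogene BC002163 (yellow), stacked, in each of the 9 libraries. The copy holds most of the reads except in wild type 3 (5.68%) and db/db 5 (6.51%), where the stack is no higher than 32.1 RPM.

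Near-identical copies touch other subunit genes as well. At 95% identity over at least 100 bases and 80% of the copy, 23 of the 83 had a copy elsewhere in the annotation, 19 of them one at 1 FPKM or more. In 12 the copy took at least 10% of the pair's reads. After Ndufs5 (70.3% over all libraries) came Atp5l with Gm10221 (58.1%), Ndufa12 with Gm15920 (49.3%), Atp5g1 with Gm10039 (39.4%) and Atp5g2 with Gm10175 (34.2%). The levels of these genes are uncertain to that extent. Their share varied far less between libraries than that of Ndufs5 in Atp5l (54.2% to 64.4%) and Cox7c (18.9% to 22.0%), while that of Ndufa12 ran from 30.3% to 55%. With copies added, 0 subunit genes were called with all libraries, and 1 higher and 5 lower without db/db 1. Over all tested genes that last fit called 692 higher and 852 lower. Without db/db 1 and before copies were added, 4.72% of all tested genes were called higher and 5.84% lower.

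Of the 13 subunits made from the mitochondrial genome, 6 lay above all wild-type libraries in db/db 1 and 5 below, with a median deviation of 0.15. This split was near the background, as 46.2% of all tested genes lay above and 36% below there. Those above included mt-Co2 (5650 FPKM, against 3400 to 3770 in wild type) and mt-Co3 of complex IV and mt-Atp6 of complex V (1700, against 848 to 965). Summed over 13 genes the mitochondrial-genome subunits stood at 34110 to 38560 FPKM in wild type and at 38150, 32270, 26970 and 24080 in db/db 1, 3, 4 and 5. With all libraries the median log2 change was -0.39, 12 of 13 were negative and 0 were called (5 at an unadjusted p under 0.05, all lower, by limma). Without db/db 1 the median was -0.54 and 7 were called lower, all of them complex I genes, where 5.84% of all tested genes were. Groups of all 9 libraries did not overlap for 4 of the 13, all lower, where 6.38% of all tested genes were lower in this way. One of them, mt-Nd5, was at 1930, 2250, 2200, 1960 and 2190 FPKM in wild type and at 1060, 1570, 1490 and 1230 in db/db. Its change was -0.67 (limma adjusted p = 0.0563) and -0.56 without db/db 1 (adjusted p = 0.0158). mt-Nd2 was at 1830 to 2340 FPKM in wild type and at 1680, 1430, 1160 and 854 in db/db (-0.74, limma adjusted p = 0.0822, and -0.88 without db/db 1, adjusted p = 0.0158). mt-Co3 did not pass, at 1550 to 1950 FPKM in wild type and at 2460, 2050, 1350 and 1550 in db/db. With GC content corrected and db/db 1 left out, 4 of the 13 were called lower, where 2.34% of all tested genes were.

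Genes that build and regulate the complexes were also read from lists. With all libraries none was called in the lists of assembly factors (17 tested for complex I, 4 for complex II, 6 for complex III, 22 for complex IV and 5 for complex V), of 22 biogenesis regulators, of 16 outer membrane and import genes, of 13 tricarboxylic acid cycle genes or of 2 tested cytochrome c genes. Their median changes ran from 0.00 to 0.13. Cox7a2l, a subunit gene by symbol, was also counted in the assembly list of complex IV. In db/db 1 the outer membrane and import genes had a median deviation of 0.60, so genes beyond the subunits stood high there too. Without db/db 1, 2 of the 22 regulators were called higher, where 4.72% of all tested genes were, and with array weights 1 was (3.77%). Polrmt, the mitochondrial RNA polymerase, was at 11.9, 11.1, 10.9, 12.9 and 11.4 FPKM in wild type and at 16.0, 14.7, 13.9 and 15.3 in db/db (0.34, limma adjusted p = 0.0637, and 0.31 without db/db 1, adjusted p = 0.0210). Nrf1, the gene for NRF1, was at 6.31, 5.86, 6.32, 6.47 and 5.70 FPKM in wild type and at 7.34, 6.86, 7.14 and 7.77 in db/db (0.22, limma adjusted p = 0.106, and 0.21 without db/db 1, adjusted p = 0.0463). Every db/db library of both genes was above every wild-type library, db/db 1 included. Groups did not overlap in this way for 5 of the 22 regulators, where 5.2% of all tested genes were higher so.

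Among the other lists, 3 genes were called without db/db 1, 1 higher and 2 lower, beside background shares of 4.72% and 5.84%. Ogdh, a subunit of the 2-oxoglutarate dehydrogenase of the tricarboxylic acid cycle, was higher (0.24, limma adjusted p = 0.0305) but was lowest of all 9 libraries in db/db 1, at 47.3 FPKM against 52.1 to 58.0 in wild type. Cycs, the somatic cytochrome c, was lower (-0.31, limma adjusted p = 0.0282), with 9.06 to 9.93 FPKM in wild type and 13.7, 8.50, 7.44 and 6.57 in db/db. Dmac1, an assembly factor of complex I, was lower as well (-0.40, limma adjusted p = 0.0439). For Cycs and Dmac1 db/db 1 was again the highest library, the pattern of Cox7c and the other subunit genes called lower.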

How the data were processed

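Libraries were made from retinal RNA with a column kit and a SMARTER mRNA-seq kit, per the labels. The authors deposited 1 table of FPKM values per gene and library; the submitters' processing notes name mm10. Their aligner, counter, strand setting and annotation: not given in the sources used here. Columns named Control or DR were matched by number to wild-type and db/db samples, an inference from the names, and groups came from the sample titles. Symbols and exon lengths came from GENCODE M21 (34499 of 35397 identifiers), and promoter windows from RefSeq. Read counts were recovered from FPKM steps and exon lengths: 98.96% to 99.15% of low values were whole within 0.1, at 36.6 to 47.9 M reads per library, and depth limits the precision of low genes.

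Values were tested as log2(FPKM + 1), which understates changes of low genes, over 14588 genes whose mean reached 1 FPKM. The test was limma 3.58.1 (lmFit, eBayes with trend) in R 4.3.3, with Benjamini-Hochberg adjustment and a threshold of 0.05. Isoform ratios had exact permutation tests. The fit was tested on simulated data. Members and gene lists were chosen with earlier results of these data known. Genes were named by a rule: called members, 4 per complex with the smallest p, the highest and lowest of each complex, isoform pairs, core and F1 subunits, and 2 per other list; 7 more subunit genes were named after their values were seen, as were Ndufa2, Ndufa5, Ndufb2, Ndufc2 and Ndufa12. Alternatives were the pseudocount, the filter, scaling, weights, corrections for GC content and length in 20 bins, limma-voom, a replicate block and leaving out libraries. One member gene is not reported here by name.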

Additional observations from a re-analysis of the deposited data

Results flagged for a closer look

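Values are given here where the highest or lowest library of a group stood apart from the others by Dixon's criterion, which chance meets in about 1 in 20 groups. Most concern db/db 1, the library with high muscle genes. In the db/db group it stood apart, on the high side, for 16 of the 83 genes, of which 11 are among the named genes: Atp5b (335 FPKM), Atp5l (7.11), Atp5mpl (77.4), Cox6a2 (21.1), Cox7c (82.1), Cox8a (382), Cox8b (15.5), Ndufa4 (189), Ndufc1 (13.7), Ndufv2 (61.3) and Uqcrb (80.5). In wild type, single libraries stood apart for 9 of the 83, of which 6 are among the named genes. Wild type 3 was high for Ndufs5 (35.2 FPKM) and Ndufs1 (11.5) and low for Atp5o (4.25). Wild type 5 was low for Atp5d (53.6 FPKM) and Ndufb11 (94.4), and wild type 1 was low for Atp5l (3.51). The median deviation of subunit genes was lowest in wild type 5, at -0.0847 over all 83, -0.0911 in complex I, -0.0747 in complex III and -0.0829 in complex V.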

How the results depend on the processing

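The limits of the comparison are its 4 db/db libraries, of which 1 stood apart, and an unknown counting procedure. The 4 alternatives chosen after seeing the data were length correction without db/db 1, a fit with neither db/db 1 nor db/db 4, and adding reads of near-identical copies with and without db/db 1. Labels in both groups carry numbers, but same-numbered libraries deviated together only weakly (correlations of 0.0434, 0.0455, -0.180 and 0.134), so the numbers were not taken to pair them. With a replicate block 0 subunit genes were called in either direction, and over all genes 2 higher and 0 lower. Where a value changed, the cause was not tested beyond what each setting leaves out.

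Leaving out each library in turn called 0 to 1 subunit genes higher and 0 to 6 lower, and all calls came without db/db 1. Higher and lower calls were 1 and 3 with array weights, 1 and 4 with GC correction without db/db 1, 2 and 6 with length correction without db/db 1, 1 and 2 with neither db/db 1 nor db/db 4, and 1 and 5 with copies added without db/db 1. Over all genes, 34 higher and 39 lower became 3 to 688 and 1 to 852 on leaving out a library, the upper ends without db/db 1; without any other library they were at most 8 and 5. They were 7 and 2 with no filter, 17 and 13 at a mean of 5 FPKM, 550 and 656 with array weights, 5 and 1 with GC correction, and 271 and 242 with length correction. On leaving out db/db 1 they were 373 and 341 with GC correction, 1052 and 940 with length correction and 692 and 852 with copies added; with db/db 4 left out as well they were 289 and 254. Limma-voom called 46 higher and 64 lower.

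The median log2 change of the 83 genes ran from -0.03 (without db/db 1) to 0.34 (without db/db 4) on leaving out a library. The same ranges were -0.01 to 0.36 for complex I, 0.03 to 0.27 for complex II, -0.00 to 0.35 for complex III, -0.03 to 0.39 for complex IV and -0.15 to 0.28 for complex V. For all 83 genes and complexes I to V in turn, medians were 0.09, 0.12, 0.09, 0.09, 0.07 and 0.09 with quantile normalization, and -0.02, -0.02, 0.05, 0.01, -0.02 and -0.12 with array weights. With length correction they were 0.09, 0.10, 0.13, 0.13, 0.09 and 0.07. GC correction gave 0.18 for complex III. Without db/db 1 they were -0.03, -0.02, 0.04, -0.02, -0.04 and -0.05 with GC correction, -0.02, 0.00, 0.04, 0.01, -0.01 and -0.14 with length correction, and -0.03, -0.01, 0.03, -0.00, -0.03 and -0.12 with copies added. Leaving out db/db 4 as well, they were 0.06, 0.07, 0.11, 0.06, 0.06 and -0.03.

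Some genes changed direction. On leaving out a library, the log2 change of Atp5l ran from -0.20 to 0.12, of Atp5mpl from -0.55 to 0.06, of Cox6c from -0.33 to 0.11, of Cox7c from -0.42 to 0.02 and of Uqcrb from -0.30 to 0.20, and the lowest value of each was without db/db 1. The ratio of Cox8b to Cox8a ran from -0.56 to 0.31 and that of Atp5g1 to Atp5g2 from -0.01 to 0.06. GC correction gave 0.01 for Cox6c and 0.05 for Cox7c. Atp5l fell below 0 with array weights (-0.18), with GC correction (-0.05), length correction (-0.17) or copies added (-0.09) without db/db 1, and with neither db/db 1 nor db/db 4 (-0.20). Uqcrb did so with quantile normalization (-0.08), array weights (-0.27) and length correction (-0.04), with GC correction (-0.15), length correction (-0.24) or copies added (-0.25) without db/db 1, and with neither db/db 1 nor db/db 4 (-0.28).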

Other observations

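Other genes were looked for, after the values of Ndufs5 were seen, that stood apart in wild type 3 and db/db 5 from the other 7 libraries. Zbtb8a, a zinc finger gene (chr4:129353628-129378116), was at 1.94 and 2.28 FPKM in these 2 libraries and at a mean of 0.691 ± 0.199 FPKM (SD, n = 7) in the others. C77080, close to it (chr4:129219578-129261404), was at 3.47 and 4.42 FPKM and at 1.53 ± 0.377 in the others. Ndufs5 lies on the same chromosome (chr4:123712710-123718202), and whether their positions matter was not tested. Scrg1 was low, at 1.19 and 1.21 FPKM against 2.68 ± 0.653. Ppia, which encodes cyclophilin A, was at 34.6 and 24.9 FPKM against 61.5 ± 19.3. In all, 5 tested genes, Ndufs5 itself among them, were high in both of these libraries by over 0.3 on the log2 scale. Besides Zbtb8a and C77080 they were Gm9182 on chromosome 10 and B230220B15Rik on chromosome 13. Other pairs of libraries shared 0 to 63 such genes, with the 63 in db/db 1 and db/db 5. Pairs without db/db 1 shared at most 12 (db/db 3 with db/db 4). No other pair of a wild-type library with db/db 3, 4 or 5 shared more than 4. The labels put wild type 3 and db/db 5 in different groups and give nothing else that they share.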
